A study of Mus musculus with 10 samples.

Results

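The 10 genes described here encode enzymes and receptors of prostaglandin and leukotriene signalling: Ptgs1, Ptgs2, Ptges, Ptgds, Ptger2, Ptger4, Alox5, Alox5ap, Alox15 and Ltb4r1. They were taken by gene symbol, and each symbol was found once among the 55421 genes of the count table. The tissue was ulcer tissue of db/db mice, which lack a working leptin receptor and become obese and diabetic, and the wound was made by surgical resection. One group of 5 libraries came from ulcers given saline, and the other group of 5 from ulcers given saline together with Fu Huang ointment. All of the animals thus carried the db/db genotype and all ulcers received saline, and no unwounded or non-diabetic tissue was compared. The wounds were evaluated after 7 days of administration. Neither the age of the mice nor whether each library came from its own animal is stated. The p-values therefore reflect only how far these libraries spread, which may be technical.

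Prostaglandins and leukotrienes are short-lived lipid signals made from arachidonic acid, which phospholipases release from membranes. Cyclooxygenases start the prostaglandin branch and 5-lipoxygenase starts the leukotriene branch, and dedicated synthases then set which product a cell makes. In wounded skin these lipids are known for regulating blood flow, the entry and exit of leukocytes, and the behaviour of keratinocytes and fibroblasts, through G protein-coupled receptors.

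The promoters of 4 members are shown because their genes behaved differently between libraries: Ptgs2 varied most, Ptgs1 varied little, and Alox5 and Ptger2 followed each other closely. Each sequence runs from 250 bases before the RefSeq start through the 30 bases that follow it, on the gene's own strand, from RefSeq on GRCm38.p6. GENCODE, used for gene positions in the text, has the same start for Ptgs1, Ptgs2 and Alox5 but starts Ptger2 downstream of the whole window shown. Capitals mark matches to 6 motifs searched on both strands. These were TATAAA as the TATA box, TGACGTCA as the cyclic AMP response element, TGANTCA as the AP-1 site and CACGTG as the E-box. The others were TTGCNNNAA, and GGG followed by any 5 bases and CC as a loose NF-kB pattern. TTGCNNNAA has a longer spacer than the C/EBP palindrome TTGCGCAA, which was not searched.
Ptgs1, chr2:36230176-36230455, plus strand: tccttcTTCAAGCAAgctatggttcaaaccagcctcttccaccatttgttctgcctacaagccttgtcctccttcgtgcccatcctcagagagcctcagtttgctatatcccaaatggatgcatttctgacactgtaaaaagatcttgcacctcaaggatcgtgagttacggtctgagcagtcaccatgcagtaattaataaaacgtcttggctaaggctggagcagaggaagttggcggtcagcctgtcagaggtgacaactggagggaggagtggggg
Ptgs2, chr1:150099781-150100060, plus strand: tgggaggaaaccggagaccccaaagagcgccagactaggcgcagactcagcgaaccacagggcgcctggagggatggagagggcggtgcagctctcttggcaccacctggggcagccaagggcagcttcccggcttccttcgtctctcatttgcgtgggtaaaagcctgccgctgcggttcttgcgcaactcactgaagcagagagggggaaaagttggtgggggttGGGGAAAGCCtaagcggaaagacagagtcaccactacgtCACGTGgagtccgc
Alox5, chr6:116461149-116461428, minus strand: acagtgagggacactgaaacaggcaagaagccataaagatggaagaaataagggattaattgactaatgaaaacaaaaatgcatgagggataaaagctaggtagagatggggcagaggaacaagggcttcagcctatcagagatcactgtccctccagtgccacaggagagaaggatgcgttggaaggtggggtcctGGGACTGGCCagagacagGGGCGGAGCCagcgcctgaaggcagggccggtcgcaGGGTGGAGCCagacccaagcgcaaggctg
Ptger2, chr14:44987861-44988140, plus strand: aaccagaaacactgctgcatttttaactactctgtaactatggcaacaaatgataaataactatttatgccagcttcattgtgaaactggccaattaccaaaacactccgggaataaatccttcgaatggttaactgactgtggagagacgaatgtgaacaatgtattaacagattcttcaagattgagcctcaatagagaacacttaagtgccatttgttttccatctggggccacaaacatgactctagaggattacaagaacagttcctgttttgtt

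The Ptgs2 window held 1 E-box, found in 6.79% of all 32851 windows of this length, and 1 match to the NF-kB pattern, found in 48.9% of them. That E-box began at base 17 from the RefSeq start, downstream of it. The Ptgs1 window held 1 match to TTGCNNNAA, found in 9.07% of windows. The Alox5 window held 3 matches to the NF-kB pattern, the last of them also downstream of the start. TTGCGCAA, which was not searched and so is not capitalized, is present in the Ptgs2 window. None of the 6 motifs was in the Ptger2 window, which had 37.9% G and C bases against 61.4% in the Ptgs2 window. No TATAAA, which 13.1% of windows held, was in any of these 4 windows. A match describes the letters only. Entries existed for 8 of the 10 members, all but Alox5ap and Alox15.

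Library totals ran from 47807353 to 62896034 counts, and 18509 genes passed the low-count filter, including all 10 members. Levels are CPM, counts scaled to library size after TMM normalization, and changes are ointment over saline from edgeR's quasi-likelihood test fitted to all genes tested, with p-values adjusted over all of them. Ointment 5 and saline 1 stood apart in Il1b, which was 5116 CPM in ointment 5 and 8.86 CPM in saline 1, against 243 to 892 CPM in the other 8 libraries. Tnf, Il6 and S100a8 were also highest in ointment 5 and lowest in saline 1, but by less. S100a8 was 378 CPM in saline 1 and 419 CPM in saline 5. Keratinocyte markers summed to 15270 CPM or more, and fibroblast markers to 17790 CPM or more, in every library.

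None of the 10 eicosanoid genes passed the threshold (adjusted p under 0.05). Of all genes tested, 1.67% passed, with 0.692% higher and 0.983% lower. At so low a share, a set of 10 genes with none called does not stand apart. Before adjustment, 4 of the 10 had p under 0.05 (Alox5ap, Ptger2, Alox5 and Ptgs1), as did 17.1% of all genes. The DESeq2 Wald test called 2 members, Alox5ap and Ptger2, both higher, and limma voom called 0. Estimates were positive for 7 members and negative for 3, with a median log2 fold change of 0.52 against -0.0025 over all genes. The groups did not overlap in 1 member, Alox5ap, and in 6.54% of all genes. The 95% interval lay above 0 for Alox5, Alox5ap and the receptor gene Ptger2 and below 0 for Ptgs1, and Ptgs2 had the largest estimate and the widest interval of the 10.

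**Figure D1:**
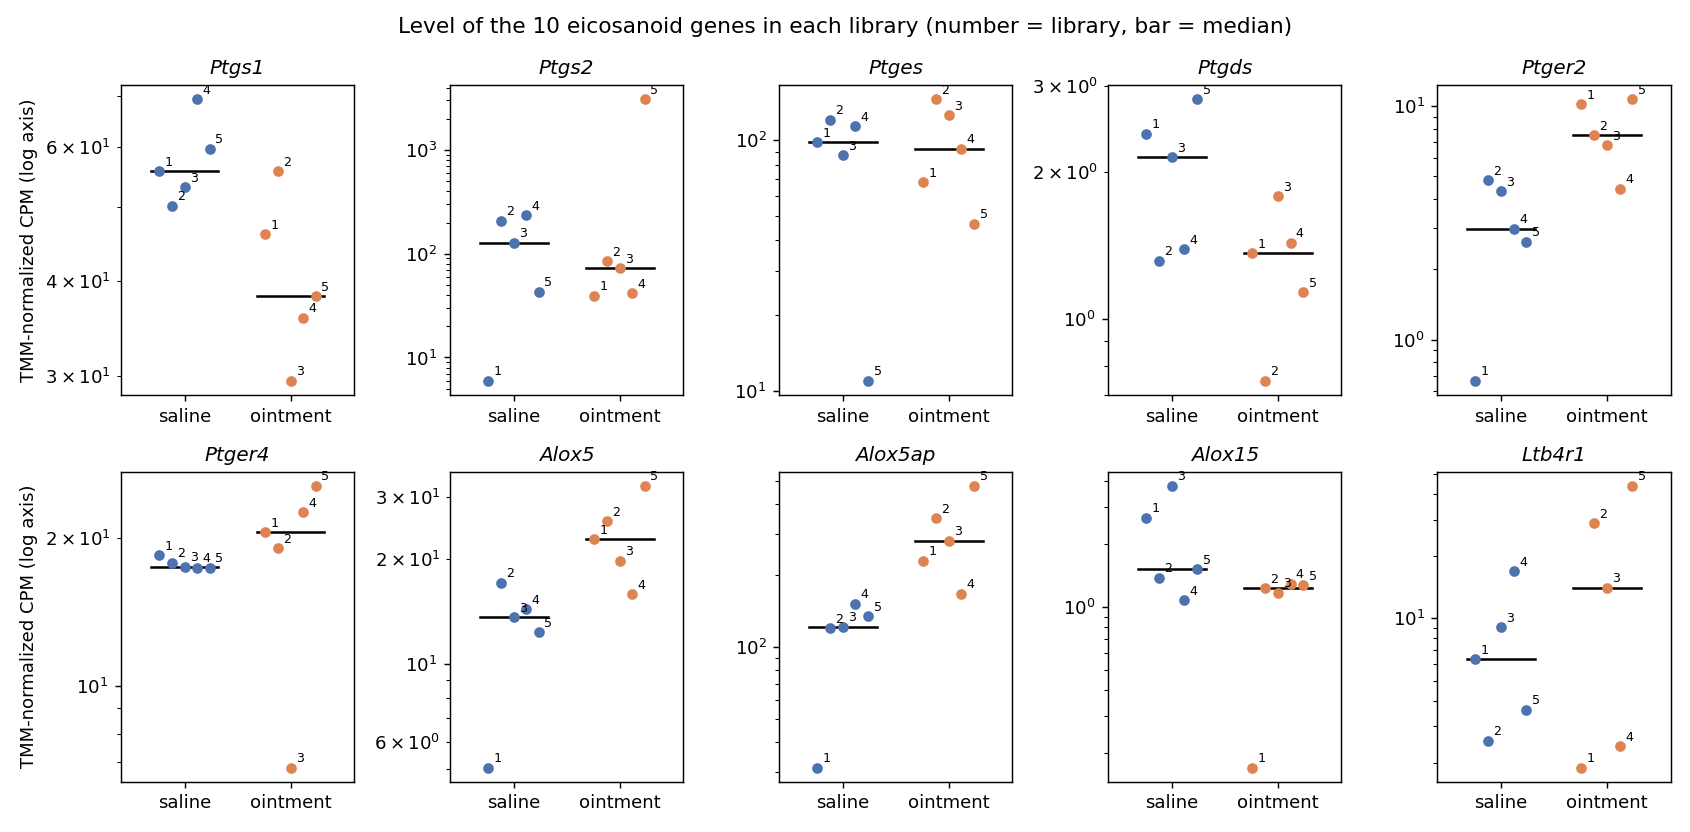
CPM of each of the 10 genes (log axis, a different range in each panel) in the 5 saline and 5 ointment libraries; points are libraries with their number and bars are group medians. All Alox5ap points with ointment lie above all those with saline, while Ptgs2 in ointment 5 lies at 3099 CPM, far above the other 9 libraries.

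Ptgs1 encodes cyclooxygenase 1, the form made constitutively by many cell types, and lies on chromosome 2 (36230426 to 36252272, plus strand, GRCm38). Its level was 55.7, 50.2, 53.1, 69.3 and 59.6 CPM in saline libraries 1 to 5, and 46.0, 55.7, 29.6, 35.8 and 38.2 CPM in ointment libraries 1 to 5. Ointment 2 lay within the saline range, and the other 4 ointment libraries lay below it. The log2 fold change was -0.49 (SE 0.17, 95% interval -0.87 to -0.10), which was not called in the fit over all genes (edgeR adjusted p = 0.181; exact two-sided permutation p = 0.0238 for this gene alone). The estimate was between -0.62 and -0.39 with any single library left out. Within groups Ptgs1 was among the steadier genes: its SD of log2 CPM was 0.28, against a median of 0.47 over all genes tested. Its closest patterns among 11918 genes of at least 5 CPM were Palmd (Pearson r 0.931), Perp (0.921) and Endov (0.899).

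Ptgs2 encodes cyclooxygenase 2, the inducible form associated with inflammation (chromosome 1, 150100031 to 150108227, plus strand). Saline libraries 1 to 5 had 5.96, 208, 128, 236 and 43.0 CPM. The ointment libraries had 39.5, 84.7, 72.8, 41.7 and 3099 CPM. Ointment 5 was thus 520-fold above saline 1, and the other 4 ointment libraries lay inside the saline range, so the groups overlapped. The mean with ointment was 668 ± 1359 CPM (SD, n = 5) against 124 ± 100 CPM with saline, but the median was lower, 72.8 against 128 CPM. The log2 fold change of 2.43 (SE 1.44, interval -0.78 to 5.64) was not called (edgeR adjusted p = 0.444; exact permutation p = 0.619) and turned to -1.06 without ointment 5 (adjusted p = 0.667). With limma voom, which weights libraries, it was 0.32. The direction of the Ptgs2 estimate thus rested on ointment 5. Its within-group SD of log2 CPM, 2.42, was larger than that of 97.3% of genes.

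Cyclooxygenase transcripts were therefore in very different proportions from library to library. The ratio of Ptgs2 to Ptgs1 CPM was 0.107, 4.14, 2.40, 3.40 and 0.721 in the saline libraries and 0.859, 1.52, 2.46, 1.17 and 81.1 in the ointment libraries. Saline 1 held the lowest ratio and ointment 5 the highest, and the other 8 libraries overlapped between groups. Over the 10 libraries Ptgs2 ranked much as Il1b did, the gene of interleukin 1 beta (Pearson r 0.875 on log2 CPM, Spearman rho 0.952; r 0.672 over 8 libraries without saline 1 and ointment 5). Depth and tissue composition differed between the libraries, and their part in that relation was not tested. The genes closest to Ptgs2 by the same measure were Tinf2 (r 0.961), Gk (0.95), which encodes glycerol kinase, and F5 (0.924), which encodes coagulation factor V. Each was also highest in ointment 5, with 89.4 CPM of Tinf2 against 19.0 to 39.9 CPM in the other 9 libraries.

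Ptges encodes microsomal prostaglandin E synthase 1, the inducible enzyme that makes prostaglandin E2 from the cyclooxygenase product (chromosome 2, 30889471 to 30929863, minus strand). It was at 98.4, 121, 87.1, 114 and 10.9 CPM in saline libraries 1 to 5 and at 67.9, 146, 126, 92.4 and 46.4 CPM in ointment libraries 1 to 5. Saline 5 was low, ointment 5 was the lowest of its group, and the groups overlapped widely. The log2 fold change was 0.15 (SE 0.54, interval -1.05 to 1.35; edgeR adjusted p = 0.934). Leaving out saline 5 gave -0.13, and leaving out ointment 2 gave -0.05. In ointment 5, which held the most Ptgs2, Ptges was thus at the low end, and the Pearson r of the pair was -0.036 over 10 libraries and 0.495 over the 8 without saline 1 and ointment 5. The pattern most like Ptges was that of Gfer (r 0.972), followed by Wdfy2 (0.961) and Rbm12 (0.956). All were lowest in saline 5, where Rbm12 was 1.17 CPM against 10.8 to 39.2 CPM in the other libraries. Whether the low Ptges value of saline 5 has the same source as those was not tested.

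Ptgds, the lipocalin-type prostaglandin D synthase gene (chromosome 2, 25466709 to 25470046, minus strand), was scarce in these ulcers. Its level was 2.40, 1.32, 2.15, 1.39 and 2.83 CPM with saline and 1.36, 0.747, 1.78, 1.43 and 1.14 CPM with ointment, from 40 to 171 deposited counts per library. The groups overlapped, and the log2 fold change of -0.64 (SE 0.31, interval -1.33 to 0.05) was not called (edgeR adjusted p = 0.334). Its closest patterns were those of Rab30, Cnpy2 and Cog4 (r 0.928 to 0.939).

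The 2 prostaglandin E2 receptor genes differed in their behaviour. Ptger2 and Ptger4 encode the EP2 and EP4 receptors, which both raise cyclic AMP. Ptger2 (chromosome 14, 44988195 to 45003820, plus strand) was at 0.666, 4.82, 4.33, 2.99 and 2.63 CPM in saline libraries 1 to 5. It was at 10.2, 7.53, 6.79, 4.43 and 10.7 CPM in ointment libraries 1 to 5. Ointment 4 fell within the saline range and the other 4 ointment libraries exceeded every saline library. The fold was 2.57 (log2 fold change 1.36, SE 0.47, interval 0.32 to 2.40), with an edgeR adjusted p of 0.170 and an exact permutation p of 0.0159. The DESeq2 Wald test called it (adjusted p = 0.0395). No fit with a library left out did, with estimates from 1.09 (without saline 1) to 1.59 (without saline 2), and it was 0.97 without saline 1 and ointment 5 together.

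Ptger4 (chromosome 15, 5206661 to 5244187, minus strand) was nearly constant with saline, at 18.5, 17.8, 17.5, 17.4 and 17.4 CPM. With ointment it was 20.6, 19.1, 6.82, 22.6 and 25.6 CPM. Ointment 3 was below every saline library and the other 4 ointment libraries were above every one. The log2 fold change was 0.10 (SE 0.29, interval -0.54 to 0.73; edgeR adjusted p = 0.919). It was 0.31 without ointment 3 (adjusted p = 0.262) and -0.04 without ointment 5. Genes with the closest patterns, Elac1, Gorab and Zfp51 (r 0.964 to 0.966), were also lowest in ointment 3. Zfp51 was 1.98 CPM there against 13.3 to 18.6 CPM elsewhere. Of the Ptger4 exonic bases, 15.3% also lie in the pseudogene Gm15937 on the opposite strand, and the library kit is not stated to keep strand.

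**Figure D2:**
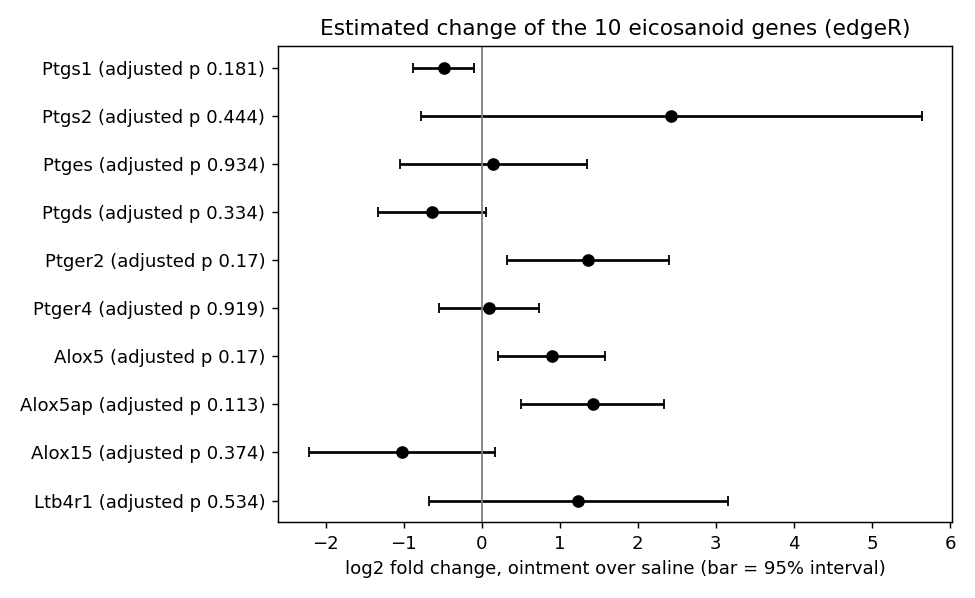
Log2 fold change of each gene, ointment over saline, with its 95% interval from edgeR and the adjusted p beside the symbol. The intervals of Ptgs1, Ptger2, Alox5 and Alox5ap lie to one side of 0, and that of Ptgs2 spans -0.78 to 5.64.

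Alox5 encodes 5-lipoxygenase, which makes leukotriene A4 in leukocytes, and Alox5ap encodes its partner FLAP, the membrane protein that presents arachidonic acid to it. Both had higher values in most ointment libraries. Alox5 (chromosome 6, 116410077 to 116461178, minus strand) was at 5.06, 17.1, 13.6, 14.4 and 12.3 CPM in saline libraries 1 to 5 and at 22.7, 25.6, 19.7, 15.9 and 32.3 CPM in ointment libraries 1 to 5. The groups overlapped by 1 library on each side, saline 2 and ointment 4. The fold was 1.86 (log2 fold change 0.90, SE 0.31, interval 0.21 to 1.58), not called at an edgeR adjusted p of 0.170 (exact permutation p = 0.0159). The DESeq2 Wald test did not call it either (adjusted p = 0.0589), and without saline 1 and ointment 5 together the estimate was 0.55.

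Alox5ap (chromosome 5, 149264767 to 149288153, plus strand) was at 31.2, 120, 122, 152 and 135 CPM with saline. It was at 230, 349, 280, 167 and 476 CPM with ointment. Every ointment library was above every saline library, with saline 4 and ointment 4 as the closest pair. The fold was 2.68 (log2 fold change 1.42, SE 0.41, interval 0.51 to 2.34). This gave an edgeR adjusted p of 0.113 and an exact permutation p of 0.0079, the smallest that 5 against 5 libraries allow. DESeq2 called the gene (adjusted p = 0.0121). It was not called by edgeR with any library left out (adjusted p 0.0827 to 0.232), and the estimate fell to 0.96 without saline 1 and ointment 5 together. Of its exonic bases, 13.3% are shared with the antisense gene Gm19719, which was itself at 1.64 CPM with saline and 4.39 CPM with ointment.

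Alox5, Alox5ap and Ptger2 ran closely in parallel over the libraries. The single gene of 11918 whose pattern was most like Ptger2 was Alox5 (Pearson r 0.975 on log2 CPM over 10 libraries; r 0.914 over 8 libraries without saline 1 and ointment 5). Alox5 and Alox5ap had r 0.970 (0.861 over those 8), and Alox5ap and Ptger2 had r 0.928 (0.723). Fpr2, a formyl peptide and lipoxin receptor gene of neutrophils and macrophages, was among the 3 closest genes for all of Alox5, Alox5ap and Ptger2 (r 0.99, 0.99 and 0.958). The neutrophil oxidase subunit gene Ncf4 was the closest to Alox5ap (r 0.99), ahead of Fpr2 and of the neutrophil granule gene Olfm4 (0.977). Cxcl3, which encodes a chemokine for neutrophils, was the second closest to Alox5 (0.984), and Pitpna was the third closest to both Alox5 (0.981) and Ptger2 (0.957). The ratio of Alox5ap to Alox5 CPM was 6.17 to 10.9 with saline and 10.1 to 14.7 with ointment.

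Leukocyte markers moved with these genes. The 9 neutrophil markers summed to 851 to 2729 CPM with saline and 1688 to 7821 CPM with ointment, and all 9 had positive estimates. Most of these sums came from S100a8 (603 CPM with saline and 1444 CPM with ointment on average) and S100a9 (809 and 1898 CPM). Relations to the neutrophil sum therefore reflect mainly those genes, and which cells made their transcripts was not tested. Ly6g, Ngp and Camp were scarce, at 0.967, 0.409 and 0.396 CPM with saline on average. With ointment they were at 8.59, 1.64 and 0.569 CPM. Of the 9 markers, edgeR called 0 although 8 had an unadjusted p under 0.05, DESeq2 called 6 and limma voom 0. The 7 macrophage markers summed to 1046 to 1987 CPM with saline and 1992 to 3583 CPM with ointment, all 7 had positive estimates, and 2 (Adgre1 and Cd68) were called higher. Over the 10 libraries Alox5ap had r 0.876 with the neutrophil sum and 0.694 with the macrophage sum, Alox5 had 0.862 and 0.598, and Ptger2 had 0.765 and 0.66. Over the 8 without saline 1 and ointment 5, these were 0.836 and 0.599 for Alox5ap and 0.821 and 0.316 for Alox5. For Ptger2 they were 0.59 and 0.418. All of these relations, to the neutrophil sum and to the macrophage sum, were thus weaker without those libraries. The macrophage sum was swung by C1qa and C1qb, which varied widely within groups (140 to 894 and 173 to 1048 CPM with ointment). The relation to the other macrophage markers alone was not tested. The part of cell number in these levels was not tested: in bulk tissue, fewer cells of a type and less RNA per cell cannot be told apart.

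**Figure D3:**
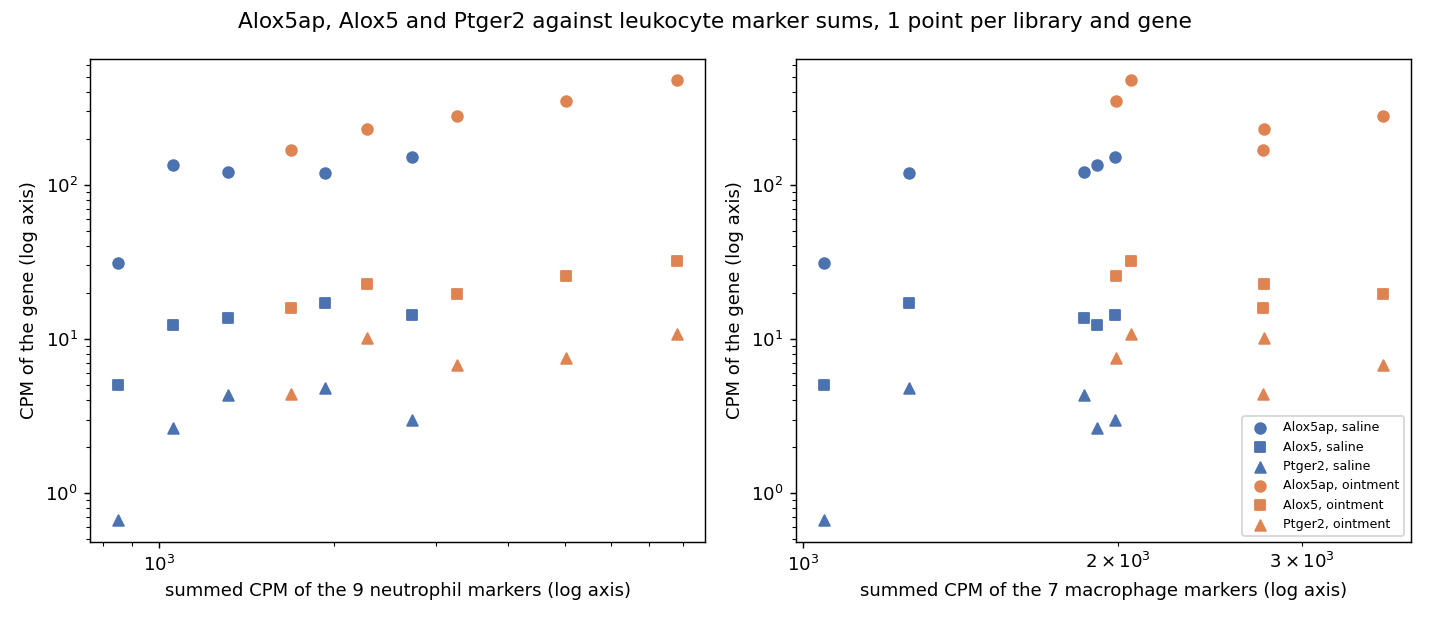
CPM of Alox5ap, Alox5 and Ptger2 (log axis) against the summed CPM of 9 neutrophil markers (left) and 7 macrophage markers (right), 1 point per gene and library, saline in blue and ointment in orange. All of these genes are lowest in saline 1, the library with the lowest sum of both lists.

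Alox15 encodes the leukocyte-type 12/15-lipoxygenase, an enzyme of eosinophils and resident macrophages that feeds pro-resolving lipids (chromosome 11, 70344152 to 70352031, minus strand). It was scarce, at 2.68, 1.38, 3.80, 1.08 and 1.52 CPM with saline and 0.171, 1.23, 1.17, 1.29 and 1.27 CPM with ointment. Ointment 1 rested on 8 deposited counts, and the other 4 ointment libraries lay in the lower part of the saline range. The log2 fold change of -1.02 (SE 0.54, interval -2.22 to 0.17) was not called (edgeR adjusted p = 0.374). Eosinophil markers summed to 3.39 to 6.66 CPM with saline and 4.13 to 7.72 CPM with ointment. Most of these sums came from Ccr3 (3.12 and 3.92 CPM on average). The eosinophil granule gene Epx was at 0 in every library. Of the 4 markers tested, edgeR called 0, with 3 estimates positive and 1 negative. The negative estimate was that of Prg2 (-1.45, edgeR adjusted p = 0.487). The patterns closest to Alox15 were those of Prpsap1, Psmb9 and Cnp (r 0.924 to 0.931), all lowest in ointment 1.

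Ltb4r1 encodes BLT1, the high-affinity leukotriene B4 receptor of neutrophils and other leukocytes (chromosome 14, 55765962 to 55768494, plus strand). It was at 6.34, 2.56, 9.06, 16.9 and 3.62 CPM with saline and at 1.90, 28.7, 14.1, 2.40 and 43.7 CPM with ointment. Ointment 1 and 4 lay below every saline library while ointment 2 and 5 lay above every one. The log2 fold change was 1.24 (SE 0.86, interval -0.68 to 3.16; edgeR adjusted p = 0.534), and it fell to 0.61 without ointment 5. Its spread within groups was larger than that of 93.5% of genes. Its correlation with the enzyme gene Alox5 was 0.345, and its closest patterns were those of Psd4, Plbd1 and Neat1 (r 0.902 to 0.916).

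**Figure D4:**
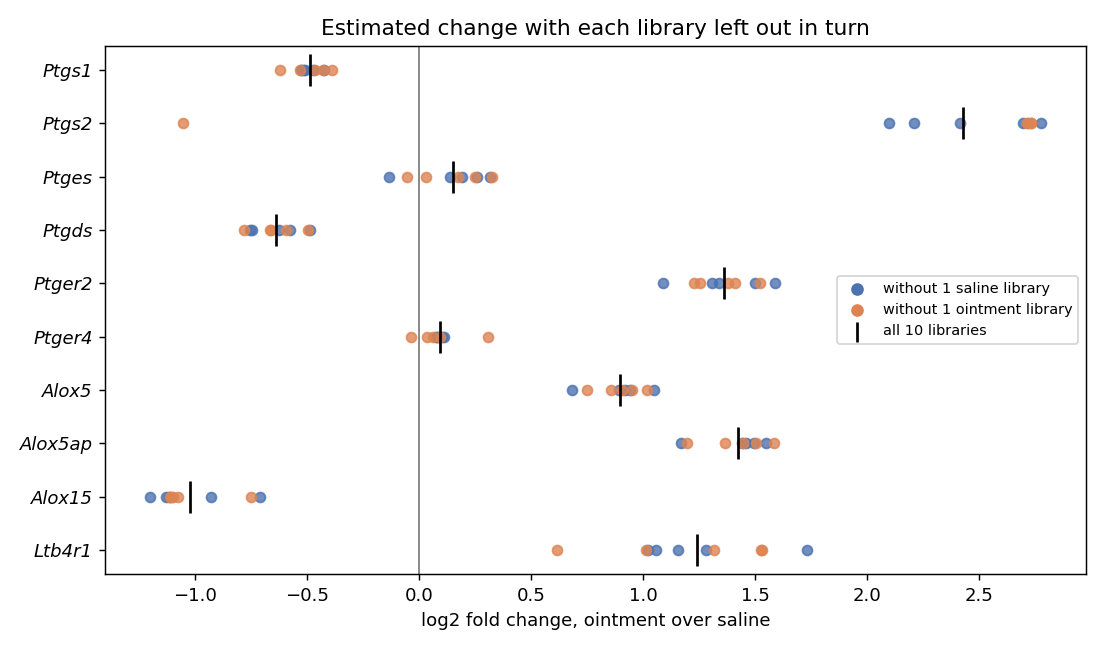
Log2 fold change of each gene with all 10 libraries (black bar) and with each library left out in turn (points, coloured by the group of the library left out). Ptgs2 moves from 2.43 to -1.06 when ointment 5 is left out, whereas Ptgs1, Ptgds, Ptger2, Alox5, Alox5ap, Alox15 and Ltb4r1 keep their sign in all 10 fits.

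Per kilobase of annotated exon, Alox5ap was the most abundant of the 10 in the median saline library and in the median ointment library, with 85.9 and 197 CPM per kilobase. With saline the medians then fell in the order Ptgs2 (27.8), Ptges (25.0), Ptgs1 (14.3), Ltb4r1 (4.55), Alox5 (3.32), Ptger4 (2.63), Ptgds (1.30), Alox15 (0.619) and Ptger2 (0.576). Of these neighbours only Ptgs1 and Ltb4r1, and Ptger4 and Ptgds, had ranges over libraries that did not overlap. With ointment the order was Ptges (23.5), Ptgs2 (15.9), Ltb4r1 (10.1), Ptgs1 (9.83), Alox5 (5.53), Ptger4 (3.10), Ptger2 (1.45), Ptgds (0.827) and Alox15 (0.502). There only Alox5ap and Ptges, and narrowly Alox5 and Ptger4, did not overlap. Ptgs2 spanned 1.30 to 51.5 CPM per kilobase with saline and 8.63 to 677 with ointment, so its place in the order was the least certain.

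The rest of the pathway was described with a list of 60 symbols, of which 58 were in the table and 55 passed the filter. Of the 55, 2 rose and 2 fell, together 7.27% against 1.67% of all genes, and 51 were not called. The median log2 fold change was 0.03, with 31 positive and 24 negative, and 17 genes (30.9%) had an unadjusted p under 0.05 against 17.1% of all genes. Ptgr2 and Tbxas1 rose, and Pla2g4f and Mgst2 fell.

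Ptgr2 encodes prostaglandin reductase 2, which inactivates 15-keto-prostaglandins, and had the clearest change. It was at 26.8, 22.7, 30.3, 28.0 and 26.0 CPM with saline and at 60.8, 48.6, 54.7, 63.7 and 49.5 CPM with ointment. The groups were well apart, with a 2.07-fold difference (log2 fold change 1.05, SE 0.12; edgeR adjusted p = 0.00432), and the call held with each of the 10 libraries left out. Of its exonic bases, 32% are shared with Gm47484, a noncoding gene on the opposite strand that was at 5.30 CPM with saline and 2.47 CPM with ointment. Hpgd, whose enzyme makes those 15-keto-prostaglandins, was at 25.8 ± 13.3 CPM with saline and 57.0 ± 25.1 CPM with ointment (SD, n = 5) and was not called (log2 fold change 1.14; edgeR adjusted p = 0.182). The transporter gene Abcc4 was not called either (-0.21, adjusted p = 0.292). In this group of 6 tested genes for transport and breakdown, 1 rose and 5 were not called.

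Tbxas1 encodes thromboxane A synthase, made by platelets and macrophages. It was at 22.7, 22.2, 29.5, 29.0 and 24.5 CPM with saline and at 48.5, 40.9, 47.7, 36.0 and 46.1 CPM with ointment, without overlap. The difference was 1.71-fold (log2 fold change 0.78, SE 0.13; edgeR adjusted p = 0.0207), but leaving out any of saline 1, ointment 1, ointment 3 and ointment 5 ended the call (largest adjusted p 0.0631). Platelet markers summed to 108 to 240 CPM with saline and 233 to 729 CPM with ointment, and of the 5 tested edgeR called 0, with 4 at an unadjusted p under 0.05, while DESeq2 called 4 and limma voom 0. The sums consisted mostly of Pf4 (156 and 364 CPM on average) and Ppbp (6.06 and 67.6 CPM). The 5 estimates did not share a direction, with 3 positive and 2 negative, the latter for Itga2b (-0.48, edgeR adjusted p = 0.158, all ointment libraries below all saline libraries) and Gp1ba (-0.20, adjusted p = 0.818). Macrophage marker sums are given above. The part of either list in the Tbxas1 difference was not tested. Of the 8 synthase genes tested, 1 rose and 7 were not called, among them Cbr1 (-0.71, adjusted p = 0.112) and Akr1b3 (0.28, adjusted p = 0.24).

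Of 14 phospholipase and lipase genes tested, 1 fell and 13 were not called. Pla2g4f, a cytosolic phospholipase A2 gene, was at 65.4, 55.9, 61.6, 61.4 and 50.4 CPM with saline and at 18.8, 39.5, 25.7, 35.2 and 25.4 CPM with ointment. No ointment library reached the saline range (2.04-fold lower; log2 fold change -1.03, SE 0.19; edgeR adjusted p = 0.0326), but the call was lost in 6 of 10 refits, each lacking one of saline 1 to 4, ointment 3 and ointment 5 (adjusted p up to 0.0856). Hair follicle markers were also lower with ointment: 5 of 5 were called lower, with sums of 16.6 to 443 CPM with saline and 2.48 to 3.54 CPM with ointment. Their relation to Pla2g4f over libraries was not computed, and their part in its difference was not tested. The epidermal secreted phospholipase gene Pla2g2f had a similar estimate without passing (-1.08, adjusted p = 0.0701). Pla2g7, which encodes the platelet-activating factor acetylhydrolase of macrophages, was at 184 ± 42.8 CPM with saline and 451 ± 176 CPM with ointment (SD, n = 5; log2 fold change 1.30, adjusted p = 0.0578). It passed with the DESeq2 Wald test (0.000961), with counts divided by 4 (0.049) and without ointment 4 (0.0302). Pla2g4a, the cytosolic phospholipase A2 classically coupled to eicosanoid synthesis, was at 38.0 to 57.4 CPM with saline and 48.5 to 124 CPM with ointment, with the highest value in ointment 5 (0.43, adjusted p = 0.485).

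Of 9 leukotriene synthesis and breakdown genes, 1 fell and 8 were not called. Mgst2, a microsomal glutathione S-transferase that can form leukotriene C4, was at 23.0, 17.5, 30.4, 20.5 and 16.7 CPM with saline and at 8.91, 12.8, 8.19, 12.3 and 10.4 CPM with ointment. The ranges did not meet (log2 fold change -1.04, SE 0.20; edgeR adjusted p = 0.0349), and the call held only without saline 5 or ointment 4 when single libraries were left out (adjusted p up to 0.086 otherwise). It was also lost with no low-count filter (0.0515). The leukotriene C4 synthase gene Ltc4s had an estimate of the opposite sign that was not called (0.96, adjusted p = 0.187), and so had Dpep2, a dipeptidase gene for leukotriene D4 (1.06, adjusted p = 0.0533), whose exons share 37.3% of their length with a second gene of the same symbol. Dpep2 passed with the DESeq2 Wald test (0.00101), with limma voom (0.0455), with counts divided by 4 (0.044), and without saline 4 (0.0476) or ointment 4 (0.0368). Lta4h, whose enzyme makes leukotriene B4, was at 75.7 to 97.8 CPM with saline and 70.5 to 80.1 CPM with ointment (-0.15, adjusted p = 0.489).

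No receptor gene passed by edgeR. Of the 7 other prostanoid receptors, 0 had an unadjusted p under 0.05 and DESeq2 and limma voom called 0; the 3 with the smallest p were Ptgdr (-0.76, edgeR adjusted p = 0.467), Ptgir (0.58, 0.475) and Ptgdr2 (-0.95, 0.576), of whose exonic length 39% is shared with Ccdc86. Of the 6 leukotriene and pro-resolving receptors tested, 2 had an unadjusted p under 0.05, DESeq2 called 2 and limma voom 0. The 3 with the smallest p were Gpr18 (1.03, 0.129), Fpr2 (2.43, 0.134) and Ltb4r2 (-1.70, 0.398). Among the 5 other lipoxygenases, which act mainly in the epidermis and platelets, 4 had negative estimates. Of these 5, edgeR called 0, with 3 at an unadjusted p under 0.05, DESeq2 called 1 and limma voom 0. Alox12e was at -1.39 (adjusted p = 0.127), Aloxe3 at -0.66 (0.199) and Alox12 at -0.91 (0.263). All 6 keratinocyte markers also had negative estimates (0 called by edgeR, 2 at an unadjusted p under 0.05, 2 called by DESeq2, 1 by limma voom) and summed to 19490 to 28000 CPM with saline and 15270 to 27880 CPM with ointment. Krt14 made up much of those sums. The markers of differentiating layers had larger estimates: Krt1 was at 1766 to 3988 CPM with saline and 144 to 917 CPM with ointment (4.07-fold lower, edgeR adjusted p = 0.0564), and Krt10 was 3.49-fold lower (adjusted p = 0.0778). Their part in the lipoxygenase values was not tested.

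**Figure D5:**
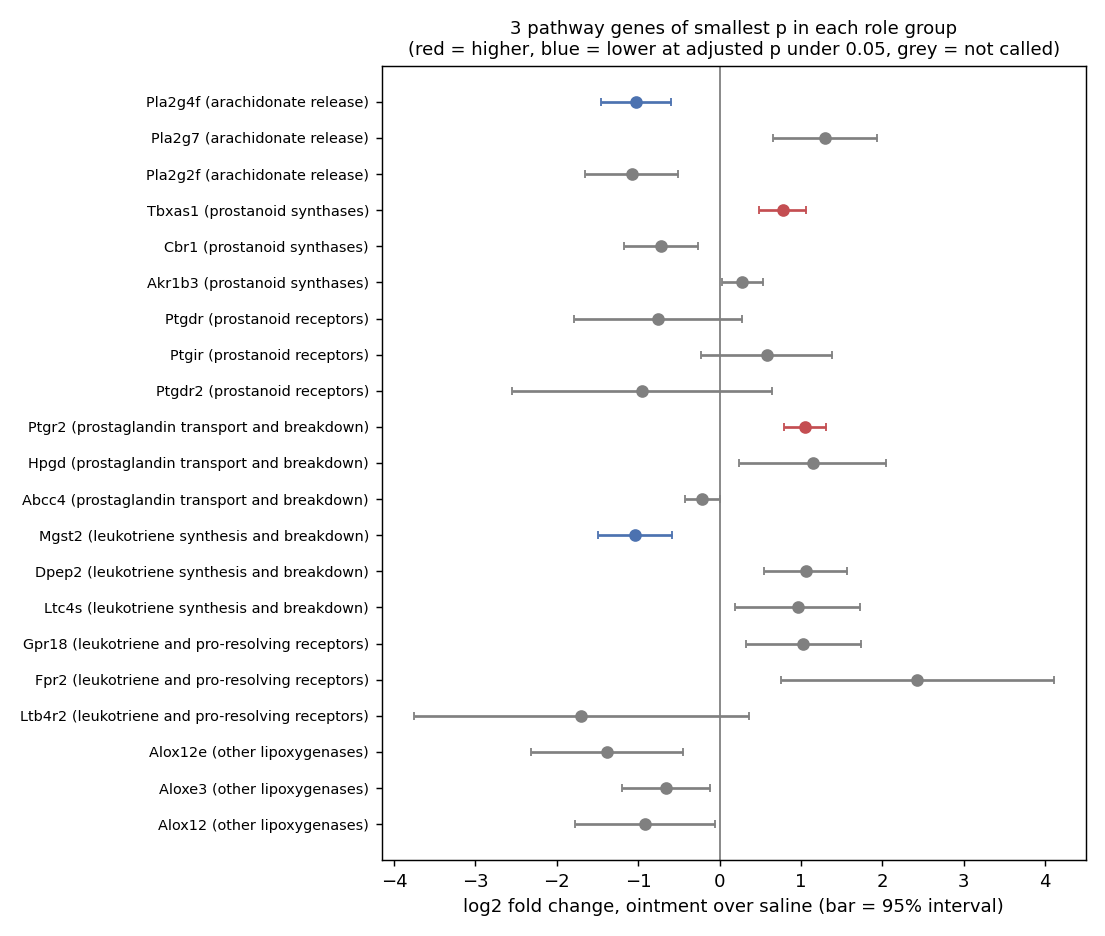
Log2 fold change with 95% interval for the 3 pathway genes of smallest p in each of 7 role groups, ointment over saline. Ptgr2 and Tbxas1 (red) rose, Pla2g4f and Mgst2 (blue) fell, and the grey genes were not called.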

How the data were processed

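RNA-seq of 10 libraries was used. The values deposited are estimated counts, unnormalized whole numbers for each gene. Per the submitters' processing notes the genome was GRCm38 (mm10); which aligner, counter and annotation were used is not stated. The deposited low values favour multiples of 4 (4 occurred 9202 times, 3 and 5 occurred 4235 and 5804 times), so they were not read as plain reads. Nothing says that the SMARTer kit named in the labels' protocols keeps strand. The labels gave each library its group and columns were matched to libraries through the labels' descriptions.

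Groups were compared with edgeR 4.0.16 in R 4.3.3: TMM scaling, filterByExpr (minimum count 10, minimum total 15), robust quasi-likelihood F-test, group as the only term, Benjamini-Hochberg adjustment over 18509 genes, threshold 0.05. Standard errors and 95% intervals come from that fit. Single genes also had exact two-sided permutation tests on log2 CPM (prior count 2). The pipeline was tested on simulated data. Alternatives were the DESeq2 1.42.0 Wald test, limma 3.58.1 voom with sample weights, edgeR with DESeq2 size factors, upper-quartile scaling or library sizes alone, no low-count filter or one at 5 CPM, no robust dispersion, counts divided by 4, a replicate block, a threshold of 0.1 for the 2 gene lists, and libraries left out. Positions and exon lengths are from GENCODE mouse release 21. Promoter windows were shortened to 280 bases after motif matches were seen, to limit the transcribed bases shown.

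The 10 genes, the pathway list of 60 symbols, the 13 marker lists and the alternatives were chosen with earlier results of these data known. All 10 were named; of the pathway list, genes called and the 3 of smallest p per role group; and for each member the 3 genes of highest Pearson r. Any other gene was named after its values were seen. The symbol Dpep2 stands on more than one row, and the one with most counts was used. Besides the lists described, endothelial, T cell, mast cell, fibroblast and perivascular lists were computed: edgeR called 0 of 5, 0 of 5, 0 of 7, 0 of 6 and 1 of 5 (lower) of their genes, with 1, 0, 2, 2 and 3 at an unadjusted p under 0.05, and DESeq2 called 1, 0, 2, 0 and 2. The melanocyte, hair follicle and adipocyte lists had 3 of 5 lower, 5 of 5 lower and 1 of 5 higher.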

Additional observations from a re-analysis of the deposited data

Results flagged for a closer look

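A single library stood far from the other 4 of its group in 5 of 62 groups of 5 examined for the 10 genes and the named pathway genes (gap to the nearest library over the range above 0.71, Dixon's 95% limit), where chance gives about 1 in 20, or 3.1. Ptgs2 was 3099 CPM in ointment 5, whereas the rest of that group spanned 39.5 to 84.7 CPM. In saline 1, Alox5ap was 31.2 CPM against 120 to 152 CPM and Pla2g7 was 107 CPM against 199 to 205 CPM in the other saline libraries. Alox15 was 0.171 CPM in ointment 1 against 1.17 to 1.29 CPM. Alox12e was 11.5 CPM in ointment 4 against 4.18 to 5.55 CPM.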

How the results depend on the processing

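The count of called eicosanoid genes was 0 under every alternative except the DESeq2 Wald test, which called 2 of the 9 members it gave an adjusted p (Ptgs2 had none); with a filter at 5 CPM, Ptgds and Alox15 were not tested. Called pathway genes were 4 as reported, 11 with DESeq2, 7 at an adjusted p threshold of 0.1, 1 without saline 1 and ointment 5 together, 0 with the replicate number as a block, and 1 (without saline 1, ointment 3 or ointment 5) to 7 (without ointment 4) with single libraries left out. With counts divided by 4 they were 6 (4 higher), Pla2g7 and Dpep2 being added. Scaling by DESeq2 size factors, upper quartiles or library sizes alone and a fit without robust dispersion each gave 4. All genes called were 310, against 1677 with DESeq2, 59 without saline 1 and ointment 5 together, 0 with the replicate block, and 102 (without ointment 3) to 422 (without ointment 4) with single libraries left out. Same-numbered libraries did not deviate together (r -0.077 to 0.056, none best with its own number in both groups), so the numbers were not taken as pairs. Estimates changed sign for 3 members, none of them called: Ptgs2 (-1.06 to 2.78 with single libraries left out, -1.36 without saline 1 and ointment 5 together), Ptges (-0.13 to 0.33 with single libraries left out) and Ptger4 (-0.22 with limma voom, -0.018 with the block, -0.022 without saline 1 and ointment 5 together, -0.037 to 0.31 with single libraries left out). The cause was not tested. Depth limits Ptgds, Alox15 and Ptger2, which rested on as few as 40, 8 and 40 deposited counts in a library.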
